A study of Homo sapiens with 4 samples.

Results

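Genes of the hypoxia response and of glycolysis, 41 of the 59050 gene symbols counted, were followed in RNA-seq of cells labelled HepG2, with or without doxorubicin. All 41 passed the filter on low counts, as did 17479 symbols in all, and CA12 passed it through its doxorubicin libraries alone. The members are the liprin gene PPFIA4 and 40 genes known for the response to low oxygen or for the breakdown of glucose. PPFIA4 was selected on its rise in the doxorubicin libraries of this series, so its own values are a description without a test. The other 40 genes and the lists used below were chosen with earlier results of these data known. Their counts are therefore a description too, and no independent support. The question was whether PPFIA4 was higher alone or together with the others, and whether that rested on untreated replicate 2, a library that stood apart from the rest.

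HepG2 is a cell line established from a human liver tumor, and the study used it to follow the tumor suppressor p53 after DNA damage. There were 2 groups of 2 libraries each. The untreated cells (0 h) had no drug, and the other cells had doxorubicin, a drug that breaks DNA, at 1 µg/ml for 24 h, although the treatment field of the labels reads p53-miRNA for those libraries. By these labels time and drug differ together between the groups, so the drug and the hours in culture cannot be told apart. All 4 libraries share the one cell line, no label says that the replicates were separate cultures, and the culture notes give no oxygen level. The untreated totals were 36272180 (replicate 1) and 28876633 (replicate 2) counts, the doxorubicin totals 34313603 and 27572740, and 3 counts were worth 0.0827 to 0.109 CPM (the count scaled by the library total). Values of 4 libraries are given below in that order.

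Cells sense low oxygen through the hypoxia-inducible factors (HIF), transcription factors with an alpha subunit (HIF1A or EPAS1) and a stable partner (ARNT). While oxygen is present, the prolyl hydroxylases EGLN1 and EGLN3 mark the alpha subunit for destruction through the VHL ligase. When oxygen falls the subunit persists, pairs with ARNT and binds the core motif ACGTG or GCGTG near its targets. Those targets raise glucose uptake and glycolysis, keep pyruvate out of mitochondria, export acid and call in blood vessels. Healthy hepatocytes use liver forms of several glycolytic enzymes, and tumor cells usually carry the forms found in most other tissues.

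The sequences before the start site were searched for these motifs, since they are where a HIF site would be looked for first. The window was the 250 bases before each RefSeq start site (GRCh38.p14), read on both strands, and SLC2A3, VEGFA, NDRG1 and BNIP3L had no window in the table used. ACGTG was found in 16 of 37 windows of the members (43.2%) and in 18.6% of the windows of all 27305 symbols. GCGTG was found in 40.5% and 31.9%, and either motif in 67.6% and 43.1%. Among the members, ACGTG was in 8 of the 14 windows (57.1%) of genes whose doxorubicin libraries both lay at least 1.5 times above both untreated ones, and in 8 of the other 23 (34.8%). Those 14 include PPFIA4, which has ACGTG and was chosen by its rise, and CA12, which had to be higher to pass the filter. This contrast within the list was not tested and gives no support. The members were listed as genes of the hypoxia response or glycolysis, and the background was all symbols, not only the genes tested. The contrast with all symbols is therefore a trait of the list rather than of these libraries. A match is a stretch of letters and not evidence of binding. The windows of 3 genes are shown up to the first annotated exon base, PPFIA4 as the gene in question, PGK1 as a high-level enzyme that was also higher, and LDHA as the window of a member with the most matches to ACGTG. Capitals mark ACGTG on either strand, and the palindrome CACGTG holds a match on each strand.

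PPFIA4 (chr1:203026241-203026490, plus strand): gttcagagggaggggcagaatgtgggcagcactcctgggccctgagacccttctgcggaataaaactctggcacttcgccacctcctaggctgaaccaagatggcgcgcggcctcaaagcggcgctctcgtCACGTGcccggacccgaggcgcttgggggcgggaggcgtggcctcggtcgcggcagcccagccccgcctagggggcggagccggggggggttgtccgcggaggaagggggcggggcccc
PGK1 (chrX:78103998-78104247, plus strand): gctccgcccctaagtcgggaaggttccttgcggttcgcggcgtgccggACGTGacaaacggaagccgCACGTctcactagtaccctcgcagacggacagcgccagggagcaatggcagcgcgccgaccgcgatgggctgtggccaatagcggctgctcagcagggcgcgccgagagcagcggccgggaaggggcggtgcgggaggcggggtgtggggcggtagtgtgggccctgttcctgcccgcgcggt
LDHA (chr11:18394313-18394559, plus strand): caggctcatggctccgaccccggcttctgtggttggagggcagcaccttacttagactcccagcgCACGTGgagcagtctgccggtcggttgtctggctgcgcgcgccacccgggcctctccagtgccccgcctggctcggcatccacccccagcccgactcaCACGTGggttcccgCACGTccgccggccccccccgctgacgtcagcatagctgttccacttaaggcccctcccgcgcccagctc

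The 30 bases around the match nearest to the start site follow for 5 further genes that were at least 1.5 times higher, each from the strand of its gene.

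CA9 (chr9:35673897-35673926, plus strand): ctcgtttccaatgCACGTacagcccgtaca
ENO2 (chr12:6914449-6914478, plus strand): cacccgcgctcgtACGTGcgcctccgccgg
BNIP3 (chr10:131982040-131982069, minus strand): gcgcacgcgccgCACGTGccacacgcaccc
LOX (chr5:122078285-122078314, minus strand): tgtaactttgcaaACGTGccagaaagttta
HK2 (chr2:74834066-74834095, plus strand): caatgggcgtgcgCACGTcactgatccgga

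The match of PPFIA4 begins 118 bases before its start site, as does that of ENO2, and the one of CA9 lies 18 bases before. By GENCODE release 44 the stretches of ENO2 and LOX fall in exons of longer transcripts of these genes, and that of BNIP3 outside exons. The windows of CA9 and HK2 hold 117 and 111 exonic bases, and whether the stretches shown fall in them was not recorded. CA12, MXI1, KDM3A, P4HA2, PFKFB4 and PDK1 also met the 1.5-times rule with no ACGTG in their windows. Of these, CA12, KDM3A and PFKFB4 had GCGTG, and MXI1, P4HA2 and PDK1 had neither motif. LDHA, with 5 matches to ACGTG, was a gene whose groups barely separated.

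PPFIA4 was not higher alone among these genes, which were chosen with earlier results of these data known. It encodes liprin-alpha-4, a scaffold protein of a family known from synapses and cell adhesion sites (chromosome 1, 203026491 to 203078740, plus strand). Its CPM was 3.50 and 2.11 in untreated cells and 28.5 and 24.4 in doxorubicin cells, so every treated library lay above every untreated one and the lowest treated value was 6.98 times the highest untreated value. Both doxorubicin libraries lay above both untreated libraries in 30 of the other 40 genes, where 30.3% of all genes tested did so. They lay below in 1 of the 40, PFKM, where 11.5% of all genes did. With a margin of at least 1.5 times, 16 of the other 40 were above and 0 below, against 7.22% and 0.995% of all genes. Leaving out CA12 too, which had to be higher to pass the filter, 29 of 39 were above, 15 of them by the margin. By that margin PPFIA4 ranked 54 among all genes tested, ahead of each other member, and SLC2A3, CA9 and ENO2 followed at ranks 71, 76 and 127. The members nearest the margin were PLOD2 at 1.5 times inside it, and SLC2A1 and NDRG1 at 1.46 times outside it. More RNA per cell and more cells of a type cannot be told apart in such bulk libraries.

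**Figure D1:**
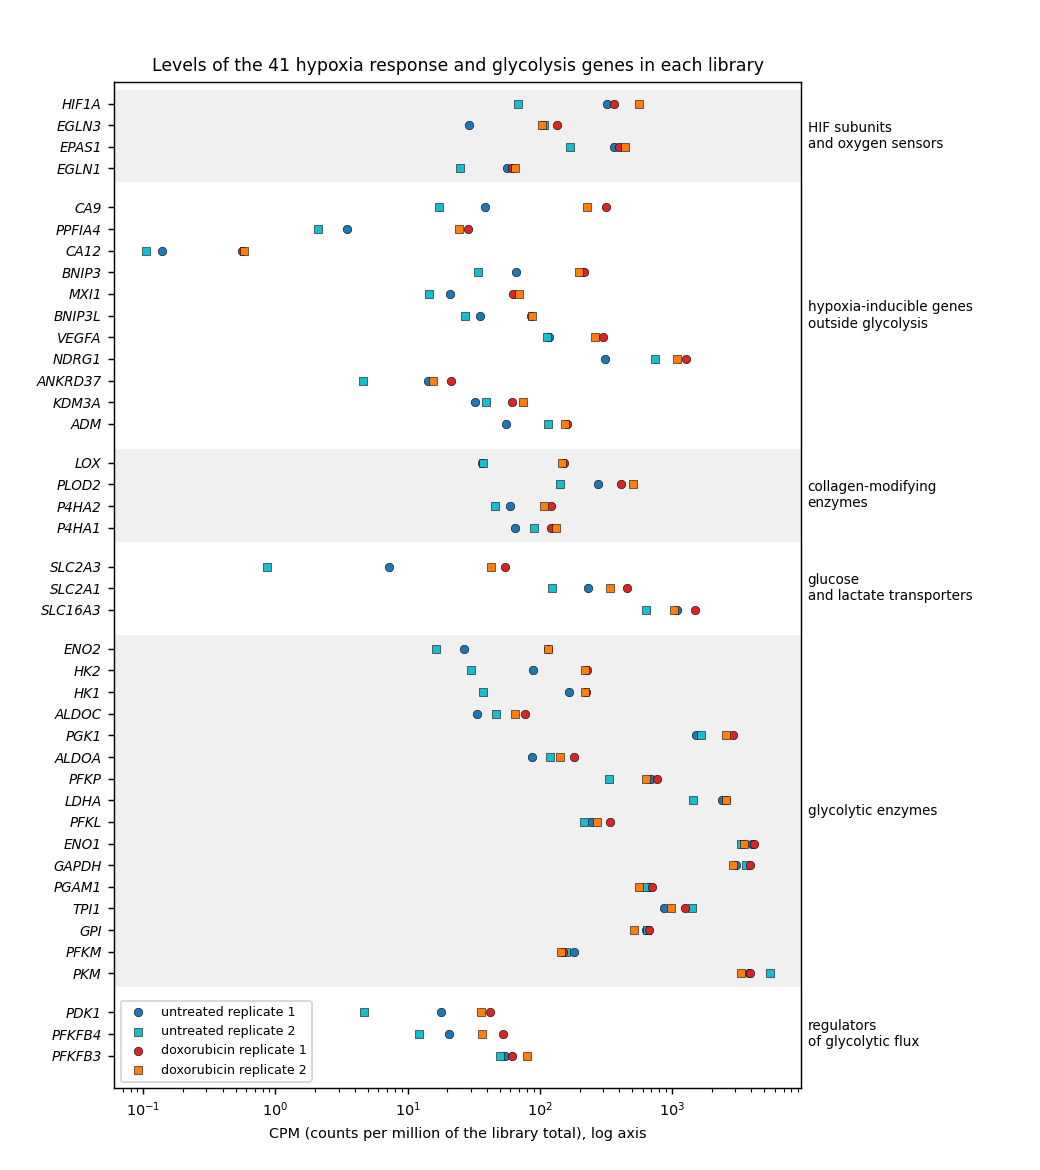
Level of each of the 41 genes in each library, as CPM on a log axis, grouped by role and ordered within a role by fold change. Circles are replicate 1 and squares replicate 2, blue for untreated and red or orange for doxorubicin; PPFIA4, CA9, SLC2A3, ENO2 and LOX show a clear gap between the colors, while GAPDH, ENO1 and PKM do not.

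No member passed the thresholds of the edgeR quasi-likelihood test with all 4 libraries (adjusted p-value below 0.05, at least a 2-fold difference), and neither did any other gene (0% of 17479). The smallest adjusted p-value over all genes was 0.773 (Benjamini-Hochberg). At an unadjusted p-value under 0.05 there were 12 of the other 40 genes, all higher with doxorubicin, and 11 of 39 without CA12, where 2.66% of all genes were higher at that level. The median log2 fold change of the 41 genes was 0.77, and that of all genes tested was 0.01; without PPFIA4 and CA12 it was 0.73, and 32 of 39 genes were above 0. Of the other 40 genes the exact test of edgeR called CA9, LOX and ENO2, where it called 0.2% of all genes as higher, and DESeq2 called these and SLC2A3, where it called 0.291% of 15784 genes. CA12 had no adjusted p-value from DESeq2.

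**Figure D2:**
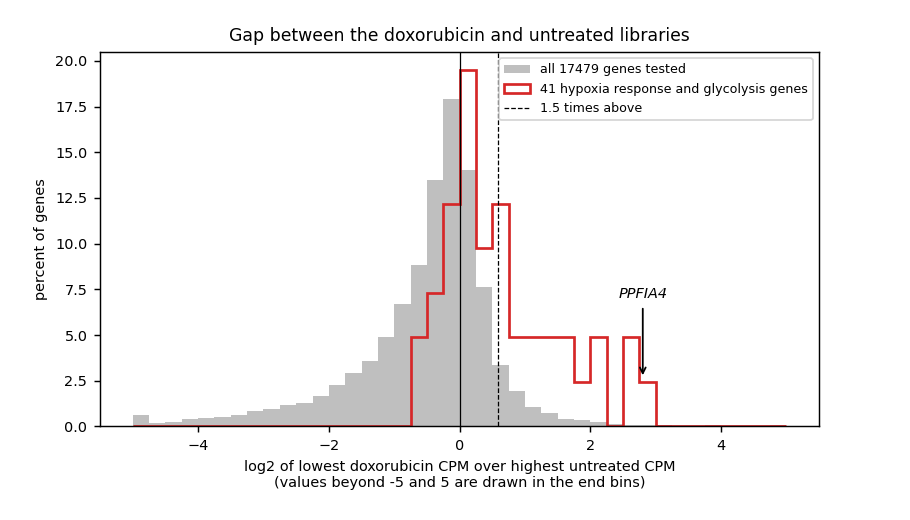
Distribution of the gap between groups, as log2 of the lowest doxorubicin CPM over the highest untreated CPM, in percent of all 17479 genes tested (grey) and of the 41 genes (red line). Values above 0 mean that the groups did not overlap upward; 31 of the 41 genes lie there and 30.3% of all genes, and the dashed line marks the 1.5-times margin.

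Untreated replicate 2 differed from the other 3 libraries, and many calls depended on which untreated library was used. Across genes the correlation of log2(CPM + 1) was 0.906 between the untreated replicates, with 6229 genes at least 2-fold apart, and 0.993 between the doxorubicin replicates, with 107. That library was outside the range of the other 3 in 28 of the 41 genes, lowest in 26 and highest in 2. Of all 17479 genes tested 81.6% were outside, with 7873 lowest and 6392 highest, so the 41 leaned more to the low side than all genes did. Without it, edgeR called 12 of the other 40 genes as higher and 0 as lower, with 3.88% of all genes called as higher. Without untreated replicate 1 in its place, edgeR called 20 of the other 40 as higher and 0 as lower, but 21.2% of all genes were called as higher. In each of these fits a single untreated library is assumed to vary like the others.

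Of the other 40 genes, 9 were called in both fits, namely CA9, VEGFA, BNIP3, BNIP3L, MXI1, LOX, SLC2A3, HK2 and ENO2. Of all genes tested in both, 1.86% were called as higher in both, and the fits share both doxorubicin libraries. NDRG1, ADM and EGLN3 were called only when untreated replicate 2 was left out, and their untreated values were higher there than in untreated replicate 1. The 11 called only without untreated replicate 1 were HIF1A, EPAS1, EGLN1, CA12, ANKRD37, P4HA2, PLOD2, SLC2A1, HK1, PFKFB4 and PDK1. The log2 fold change of PPFIA4 was 3.07 (standard error, SE, 0.50) with 4 libraries, 2.77 without untreated replicate 2 and 3.56 without untreated replicate 1. The median of the 41 genes was 0.77, 0.75 and 1.22 in these fits. Without doxorubicin replicate 1 or 2 the median of the 41 genes was 0.73 and 0.88, and that of all genes was -0.06 and -0.02. With all libraries 13 of the 41 were at an unadjusted p-value under 0.05 (edgeR), all higher, where 2.66% of all genes were higher.

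**Figure D3:**
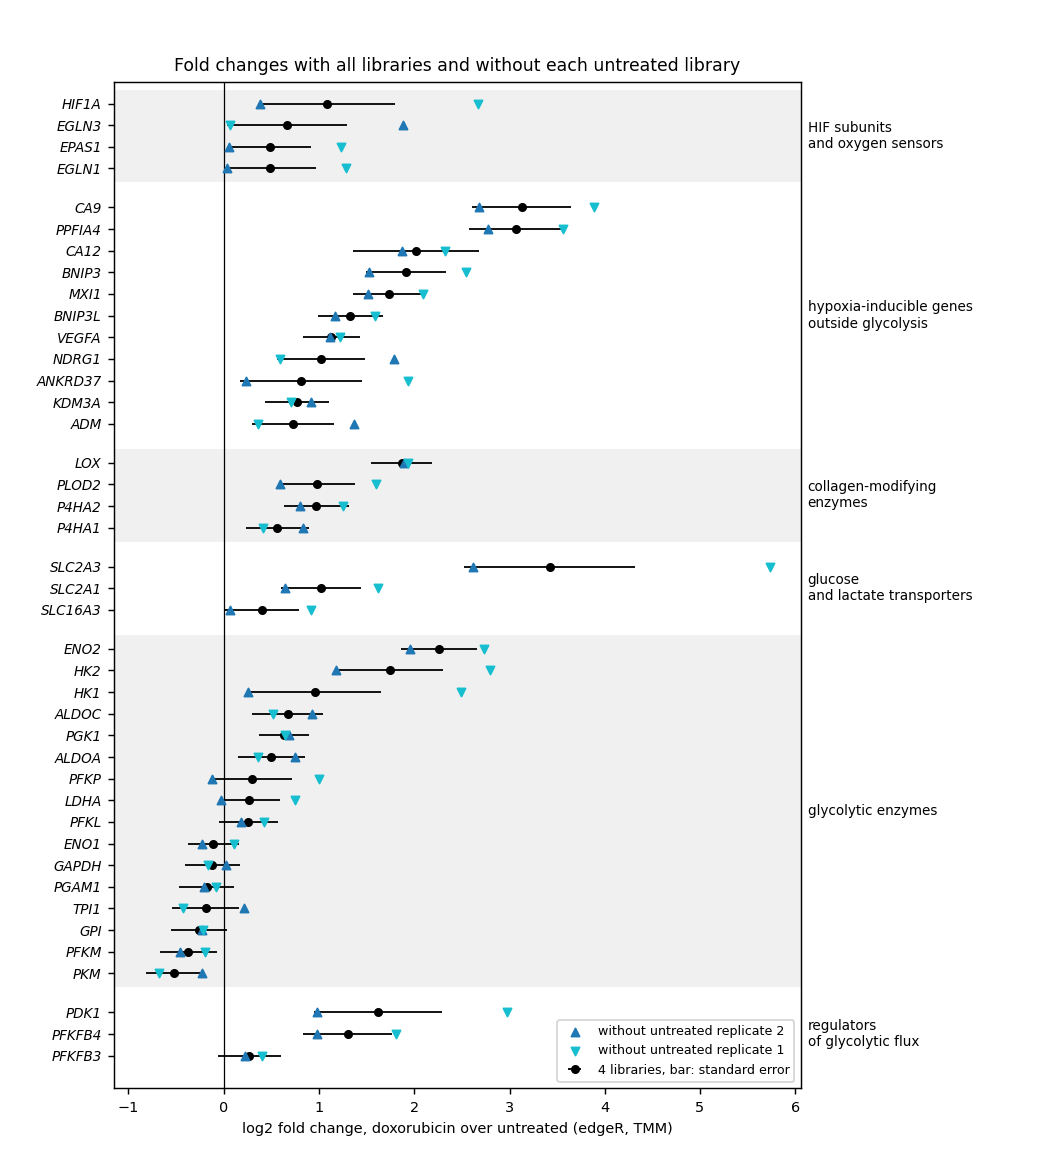
Fitted log2 fold change of each gene, doxorubicin over untreated, with 4 libraries (black points, bars are standard errors) and without each untreated library (triangles). Triangles of PPFIA4, LOX and VEGFA sit near the point, from 2.77 to 3.56 for PPFIA4, while those of HIF1A, HK1 and SLC2A3 lie far apart and those of GAPDH and ENO1 fall on either side of 0.

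In the HIF subunits and oxygen sensors the difference rested on which untreated library was used. HIF1A, the inducible subunit, had a CPM of 320.1 and 68.2 untreated and 365.2 and 559.0 treated. The untreated values were further apart than the treated ones, and the log2 fold change of 1.08 (SE 0.72) became 0.38 without untreated replicate 2 and 2.67 without untreated replicate 1. EPAS1, the other alpha subunit, had 365.7 and 169.3 and then 400.8 and 441.7. Its log2 fold change was 0.06 without untreated replicate 2, so untreated replicate 1 was close to the treated level. HIF alpha subunits are controlled mainly by protein breakdown, which RNA counts do not measure.

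EGLN3, a hydroxylase that HIF itself induces, had 29.3 and 107.4 untreated and 134.8 and 103.8 treated, and the groups overlapped through untreated replicate 2. Without that library its log2 fold change was 1.88 (adjusted p-value 1.05e-10, edgeR), and without untreated replicate 1 it was 0.07. EGLN1, the main oxygen sensor, had 56.4 and 24.8 and then 62.1 and 65.3. Of its exon bases 69.3% are shared with another annotated gene of the same strand, so its counts are uncertain.

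Hypoxia targets outside glycolysis numbered 11, of which PPFIA4 was chosen by its rise and CA12 passed the filter through its treated libraries. Of the other 9 genes, 9 were higher in both doxorubicin libraries and 6 by the 1.5-times margin, against 30.3% and 7.22% of all genes. CA9, a cell-surface carbonic anhydrase that moves acid out of the cell and a classic marker of hypoxic tumors, had a CPM of 38.7 and 17.4 untreated and 319.5 and 225.9 treated. Its log2 fold change was 3.13 (SE 0.52), 2.68 without untreated replicate 2 and 3.89 without untreated replicate 1, close in size to that of PPFIA4 in each fit. CA12, a second carbonic anhydrase, was near the limit of detection with 5 and 3 counts untreated and 19 and 16 treated, and no fold is given.

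BNIP3 and BNIP3L, mitochondrial proteins that direct damaged mitochondria to autophagy, had 65.5 and 33.9 against 216.9 and 199.7, and 35 and 27.3 against 86.4 and 87.8. Their log2 fold changes were 1.91 (SE 0.42) and 1.33 (SE 0.34), and neither group overlapped. MXI1, which competes with MYC for its partner MAX, had 20.9 and 14.6 and then 63.0 and 69.1, a log2 fold change of 1.74 (SE 0.38). VEGFA, the growth factor that draws in blood vessels, had 117.3 and 114.3 and then 301.2 and 262.1. It was among the few members with nearly equal untreated replicates, so its log2 fold change of 1.13 (SE 0.30) was 1.12 and 1.22 when either was left out.

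KDM3A, a histone demethylase, had 32.4 and 39.2 and then 61.1 and 75.1, a log2 difference of 0.77 (SE 0.34). NDRG1, a stress-responsive protein and the most abundant gene of the group by CPM, had 309.3 and 745.8 and then 1280.8 and 1089.9. ADM, the vasodilator peptide adrenomedullin, had 55.2 and 116.2 and then 160.4 and 156.5. In both genes untreated replicate 2 lay between untreated replicate 1 and the treated libraries, which is the reverse of its place in CA9 and BNIP3. ANKRD37, an ankyrin repeat protein, had 14.3 and 4.57 and then 21.3 and 15.6, a narrow gap of 1.10 times, and 54.7% of its exon bases are shared with UFSP2 on the other strand.

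Collagen-modifying enzymes, which hydroxylate or cross-link collagen and are known to be raised by hypoxia, were all 4 higher in both doxorubicin libraries, 3 of them by the margin (30.3% and 7.22% of all genes). LOX, the lysyl oxidase that cross-links collagen, had 36.3 and 37.0 untreated and 151.9 and 146.1 treated. Replicates were nearly equal in each group, and the log2 fold change was 1.87 (SE 0.32), 1.89 without untreated replicate 2 and 1.93 without untreated replicate 1. PLOD2, a lysyl hydroxylase, had 274.7 and 142.7 and then 412.9 and 506.9, and P4HA2, a catalytic subunit of prolyl hydroxylase, had 59.6 and 45.5 and then 122.4 and 107.6. The related subunit P4HA1 was closer, at 64.7 and 89.9 and then 121.4 and 132.8, with a log2 fold change of 0.56 (SE 0.33).

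Among the transporters, SLC2A3 differed from its relative SLC2A1 in size. SLC2A3, the high-affinity glucose transporter of neurons, had a CPM of 7.17 and 0.866 untreated and 54.6 and 42.8 treated. Its log2 fold change was the highest of the 41 at 3.42 (SE 0.90), but it was 2.62 without untreated replicate 2 and 5.73 without untreated replicate 1, since the untreated libraries themselves were far apart. SLC2A3 has a near-identical copy, SLC2A14, with which reads can be exchanged. SLC2A1, the glucose transporter of most tissues, had 232.2 and 123.2 and then 460.5 and 338.9, a log2 fold change of 1.02 (SE 0.42). SLC16A3, the lactate exporter of glycolytic cells, had 1089.6 and 633.2 and then 1490.6 and 1035.9, and its groups overlapped.

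The 16 glycolytic enzymes did not move as one. In 8 both doxorubicin libraries lay above both untreated ones, 7 overlapped and 1 was below (30.3% above and 11.5% below among all genes), and their median log2 fold change was 0.26. HK2, the inducible hexokinase, had 89.0 and 30.3 and then 227.1 and 219.9, a log2 fold change of 1.75 (SE 0.55). HK1, the constitutive form, had 167.3 and 37.3 and then 225.3 and 218.0, and without untreated replicate 2 its log2 fold change was 0.26 against 1.18 for HK2. ENO2, the enolase known from neurons, had 26.7 and 16.3 and then 114.6 and 115.9, a log2 fold change of 2.26 (SE 0.40), 1.96 without untreated replicate 2 and 2.73 without untreated replicate 1.

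PGK1, phosphoglycerate kinase, passed the 1.5-times margin at a level far above that of HK2 and ENO2. It had 1528.3 and 1652.1 and then 2890.4 and 2579.4, with similar replicates in each group and a log2 difference of 0.63 (SE 0.26). LDHA, which turns pyruvate into lactate and is a textbook HIF target, had 2383.7 and 1446.2 and then 2569.4 and 2584.5. Its log2 fold change was 0.27 (SE 0.32) and turned to -0.03 without untreated replicate 2. ALDOC, PFKL and ALDOA were above by 1.39, 1.10 and 1.19 times at the closest libraries, and 69.9% of the exon bases of ALDOA are shared with another gene of its strand.

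The remaining abundant enzymes did not separate upward. GAPDH had 3053.2 and 3625.8 and then 3915.9 and 2900.6, ENO1 had 4049.6 and 3349.8 and then 4154.5 and 3491.2, and PKM had 3830.9 and 5483.8 and then 3916.3 and 3325.5. The ranges of these groups overlapped, as did those of TPI1, GPI, PGAM1 and PFKP. Log2 fold changes ran from -0.52 for PKM to 0.30 for PFKP; those of GAPDH (-0.12) and ENO1 (-0.11) were above 0, at 0.03 and 0.05, when libraries were scaled by their totals alone. PFKM, the muscle phosphofructokinase, was the lone member below, at 182.2 and 158.7 and then 149.6 and 143.6. The 16 enzymes together took 1.85% and 1.92% of all untreated counts, and 2.22% and 1.88% of all treated counts, so their sum overlapped as well. GAPDH and PGAM1 have processed pseudogenes that can take part of their reads.

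The regulators of glycolytic flux were above in all 3 cases, 2 of them by the margin (30.3% and 7.22% of all genes). PDK1, the kinase that keeps pyruvate out of mitochondria, had 17.9 and 4.68 and then 41.8 and 36.1, with a log2 fold change of 1.62 (SE 0.67). PFKFB4 had 20.5 and 12.1 and then 53.1 and 36.5, a log2 fold change of 1.30 (SE 0.47). Its relative PFKFB3, which like PFKFB4 sets the activator of phosphofructokinase, had 54.4 and 50.0 and then 61.4 and 79.4, and the closest libraries were 1.13 times apart.

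Ratios of related genes within one library do not depend on its scaling. Per kb of exon, the ratio of ENO2 to ENO1 was 0.00385 and 0.00284 untreated and 0.0161 and 0.0194 treated, a mean ratio 5.29 times higher. The ratio of SLC2A3 to SLC2A1 was 0.0263 and 0.00599 and then 0.101 and 0.108, and that of HK2 to HK1 was 0.430 and 0.657 and then 0.815 and 0.815. ENO2 remained under 2% of both enolases together, since ENO1 was at 1817.6 to 2254.2 CPM per kb. The ratio of PFKFB4 to PFKFB3, at 0.573 and 0.368 and then 1.31 and 0.698, was higher with a narrow gap. Ratios were computed for 9 pairs. In 8 of them both treated ratios lay above both untreated ratios. PDK3 over PDK1 overlapped at 1.04 and 1.54 and then 1.11 and 1.43. In every pair the gene with the larger log2 fold change was set on top, so this count was largely fixed beforehand. CA9 over CA12 rests on 3 to 19 counts of CA12. No share over other gene pairs was computed, and no test was run on these ratios.

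**Figure D4:**
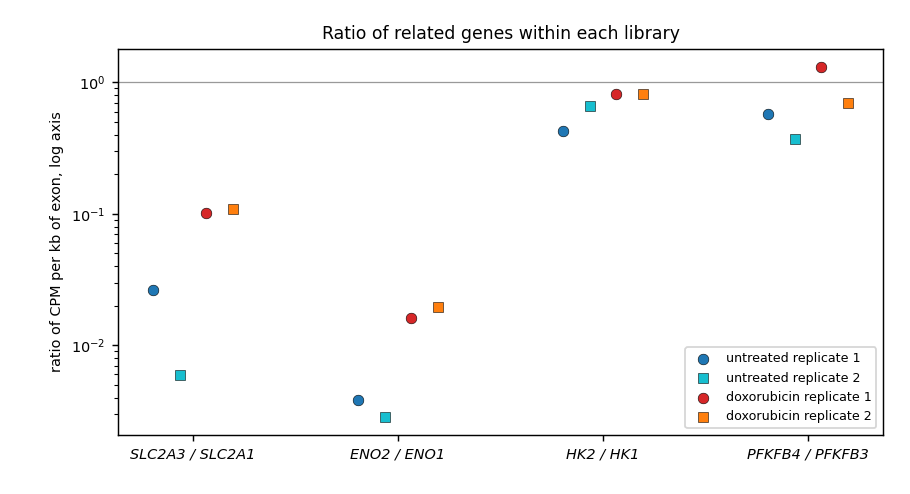
Ratio of CPM per kb of exon between related genes within each library, on a log axis, for glucose transporters, enolases, hexokinases and phosphofructokinase regulators. Treated libraries (red, orange) lie above untreated ones (blue) in each pair, from 0.00284 and 0.00385 to 0.0161 and 0.0194 for ENO2 over ENO1, and the grey line marks equal levels.

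Of the members, 4 are neighbors with unlike values. On chromosome 12, GAPDH (6534512 to 6538374), TPI1 (6867119 to 6870948), ENO2 (6913745 to 6923698) and SLC2A3 (7919230 to 8019007) lie close together (GRCh38, GENCODE release 44). ENO2 and SLC2A3 had gaps of 4.29 and 5.97 times, while the groups of GAPDH and TPI1 overlapped.

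The place of untreated replicate 2 moved with exon length. Over 14441 genes with a known exon length, its log2 CPM minus that of untreated replicate 1 had a median of 0.30 in the shortest length group (of 4 equal groups) and -0.62 in the longest, and the same difference between the doxorubicin replicates ran from -0.04 to 0.16. The Spearman correlation with exon length was -0.324 across all these genes and -0.232 across the 41, which share the same 2 libraries. PPFIA4, with 7664 exon bases, had a difference of -0.62, and PDK1, with 14215, had -1.83. CA9, with 1546, had -1.13 and EGLN3, with 4876, had 1.85. The part of this in the fold changes was not tested.

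**Figure D5:**
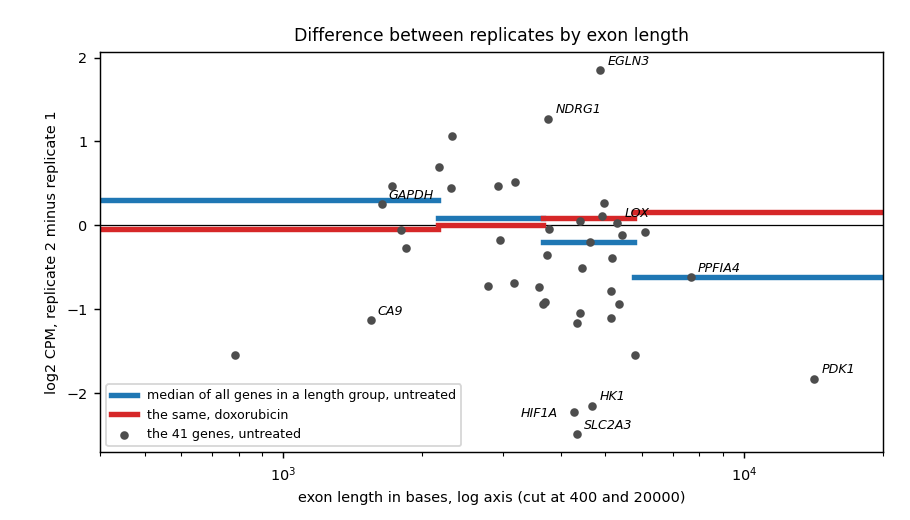
Log2 CPM of replicate 2 minus replicate 1 against exon length, with the median of all genes in each of 4 length groups for untreated (blue) and doxorubicin (red) libraries and the 41 genes in untreated cells (dots). The blue steps fall from 0.30 to -0.62 while the red ones stay between -0.04 and 0.16, and several of the 41 genes, such as EGLN3 and SLC2A3, lie far from the blue steps.

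Genes beyond the 41 were read through lists of the same pathway, also chosen with earlier results of these data known. Of 29 other hypoxia-inducible genes 28 were tested, of which 23 were above in both doxorubicin libraries, 18 by the margin and 0 below, where 30.3%, 7.22% and 11.5% of all genes were. Their median log2 fold change was 1.12, 0.98 without untreated replicate 2 (14 called higher, 0 lower, with 3.88% of all genes higher) and 1.31 without untreated replicate 1 (18 higher, 2 lower, with 21.2% of all genes higher). IGFBP3, which binds insulin-like growth factors, had 240.3 and 172.1 and then 1196.6 and 1010.8, and ANGPTL4, an inhibitor of lipoprotein lipase, had 4.91 and 3.74 and then 27.9 and 23.3. ACGTG was in 12 of the 20 windows of this list (60%). EPO, the classic HIF target of kidney and liver, was not tested, with at most 0.208 CPM in any library.

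Glycolysis and gluconeogenesis genes that are no members gave no such count. Of 25, 13 were tested, 3 were above and 2 below (30.3% and 11.5% of all genes), and the median log2 fold change was -0.22. PDK3, a relative of PDK1, was the single one above by the margin (17 and 6.61 and then 42.5 and 47.6), and SCO2, an assembly factor of the respiratory chain, the single one below by it (0.524 and 1.52 and then 0.321 and 0.326), though 88.2% of its exon bases are shared with other genes. The HIF machinery had 12 of 13 genes tested, with 4 above and 0 below, a share above near the 30.3% of all genes. Among these ARNT2, a partner of HIF alpha, was above by the margin, at 23.5 and 2.46 and then 64.6 and 67.5. Of the 5 other liprins 4 were tested and 2 were above, 0 by the margin, and PPFIA3 had its highest value in untreated replicate 2 (8.38 and 61.5 and then 13.4 and 11.6).

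The label of the cells was not borne out by liver genes. PKLR, the liver pyruvate kinase, SLC2A2, a liver glucose transporter, and the gluconeogenic genes G6PC, FBP1 and PCK1 were each under 1 CPM in every library. Of 15 hepatocyte markers 9 were under 1 CPM in every library, ALB had 0, 1, 2 and 3 counts, and their sum was 1.32 and 4.78 CPM untreated and 16.8 and 20.1 treated, of which FGG was 0.165, 0.104, 9.76 and 14. Squamous epithelial markers summed to 931.5 and 1227 CPM and then 1594.4 and 1327.5, nearly all KRT17, and fibroblast markers to 220.3 and 165.5 and then 278.2 and 279.7. Fibroblast genes went both ways, since LUM (65.4 and 49.3 and then 135.5 and 162.6) and DCN were above, COL3A1 was below (70 and 69.1 and then 55.8 and 46), COL1A1 overlapped and COL1A2 had at most 2 counts. Blood cell markers summed to at most 2.42. The hepatocyte, squamous and fibroblast sums were each higher in both treated libraries, as most of the hypoxia genes were, and their part in the result was not tested. As a check of the treatment, CDKN1A, the p53 target that stops the cell cycle, had 380.1 and 865.6 and then 1002.9 and 880.3. MDM2 had 43.0 and 32.1 and then 54.8 and 56.6. Both lay above in treated cells by library total, CDKN1A by 1.02 times, where 30.3% of all genes did. Log2 fold changes of CDKN1A were 1.16 without untreated replicate 2 and 0.04 without untreated replicate 1. Those of MDM2 were 0.23 and 0.71, so the check was weak.

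Scaling bore on how many genes separated. With TMM factors in place of library totals, 28 of the 41 genes were above and 3 below, where 21.3% and 17.9% of all genes were. Library totals put the median of all genes at 0.17 on the log2 scale and TMM factors at 0.01, so values by library total are read against that shift. PPFIA4, CA9, LOX, ENO2, SLC2A3, BNIP3 and 29 further members kept the sign of their log2 fold change under every alternative run, and PFKP, TPI1, GAPDH, PGAM1, ENO1 and LDHA did not.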

How the data were processed

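RNA-seq libraries from 2 untreated and 2 doxorubicin-treated samples were compared. Per the methods and labels, the authors filtered reads with FastQC and Cutadapt, mapped them to hg38 with HISAT2 and counted them with HTSeq, and the file headers name the basic annotation of GENCODE release 31. The deposited values are raw counts per gene symbol, without normalization, and tool versions and the use of strand are not given in the sources used here. Members and lists were chosen with earlier results of these data known. Members were matched by symbol, and each is named, with values in every library where the groups lay at least 1.5 times apart or the gene is a sensor or textbook target. CPM was the count over the library total. Counts were tested with edgeR 4.0.16 (R 4.3.3) by the quasi-likelihood test after filterByExpr with TMM factors (0.944, 0.951, 1.02 and 1.09) and a prior count of 0.125. P-values were adjusted by Benjamini-Hochberg over all 17479 genes, with thresholds of 0.05 and a log2 fold change of 1, and measure only the spread between these libraries, which may be technical. DESeq2 1.42.0, the edgeR exact test, other scalings and filters, a replicate block and each library left out served as alternatives. The test was run on simulated counts with known changes beforehand. Recovery was required only where the spread between replicates was set far smaller than in these libraries, so that run does not bear on the lack of calls here. Positions, exon lengths and shared exons came from GENCODE release 44 on GRCh38, in which 36434 of 59050 symbols were found (82.6% of genes tested).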

Additional observations from a re-analysis of the deposited data

How the results depend on the processing

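The count of called genes among the 41 was 0 with edgeR, 4 with its exact test, 5 with DESeq2 and 2 (CA9 and SLC2A3) with the replicate number as a block, and 0 to 21 when a library was left out. Without PPFIA4, which was chosen by its rise, the exact test called 3 and DESeq2 4. As higher among all genes, the exact test called 0.2%, DESeq2 0.291% and the block fit 16 of 17479. Shares of all genes for the fits without an untreated library are given above. Same-numbered libraries had a correlation of their deviations of -0.0561, so the numbers were not taken as pairs. At an unadjusted p-value under 0.05 there were 6 (without either doxorubicin library) to 29 genes (without untreated replicate 1) when a library was left out. Of all genes tested, far more were at that level without untreated replicate 1 than without either doxorubicin library. This range therefore does not show in which fit the members stood out most from all genes. The median log2 fold change was 0.93 by library totals, 0.70 with upper-quartile factors, 0.84 without a filter, 0.92 with the replicate block and 0.73 to 1.22 without a library. Genes of the 41 below in both doxorubicin libraries numbered 3 with TMM factors (chosen after seeing the data), where 17.9% of all genes were. They numbered 4 with DESeq2-type factors (20.2% of all genes) and 2 with upper-quartile factors (17.1%). Without a library they numbered 1 to 5 (17.7% to 38.5% of all genes). Log2 fold changes of GAPDH and ENO1 turned to 0.03 and 0.05 by library totals. Without 1 library, the ranges were -0.12 to 1.00 for PFKP, -0.43 to 0.21 for TPI1, -0.36 to 0.17 for GAPDH, -0.37 to 0.05 for PGAM1, -0.25 to 0.11 for ENO1 and -0.03 to 0.75 for LDHA. The cause of these moves was not tested.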
